A study of Mus musculus with 36 samples.

Results

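CpG methylation was examined at 8 genes that encode hormone-binding or related nuclear receptors in mouse liver: Esr1 and Esr2, the estrogen receptors, Pgr, the progesterone receptor, Nr3c1, the glucocorticoid receptor, Nr3c2, the mineralocorticoid receptor, Thra and Thrb, the thyroid hormone receptors, and Rora, which encodes the orphan receptor RORα. The genes were chosen by their function, with earlier results of these data known. For each gene, all CpGs from 5 kb upstream of its start to 1 kb past its end (mm9) were taken in windows of 500 nt, and 1523 windows of these genes, of 1456902 on the autosomes, held 5 CpGs or more and were covered by 30 reads or more in each of the 24 mice. Rora, the longest gene, held 759 of them, Esr1 244, Nr3c2 239, Esr2 76, Thrb 72, Nr3c1 53, Thra 51 and Pgr 29. The methylation level of a window is its weighted methylation, the percent of all reads over its CpGs that were methylated.

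Whole-genome bisulfite sequencing was performed on the livers of 24 mice in 8 groups of 3. The parents were inbred C57BL/6N (B6) and C3H/HeN (C3) mice, with sires and dams of each strain, and the offspring were the reciprocal F1 hybrids, B6C3F1 from B6 mothers and C3B6F1 from C3 mothers, with sons and virgin daughters of each cross. All mice were killed at 20 weeks of age, and the parents had been mated at 10 weeks, with the pups weaned when the parents were 16 weeks old. The dams therefore differed from their virgin daughters in having borne and nursed pups and also in being inbred. Parents and offspring also differed in time of birth and in housing. By the study's account, the parents were caged in pairs for mating and otherwise singly, and the offspring together by sex. Sires and F1 sons differed in being inbred or hybrid, in mating, in time of birth and in housing, but not in pregnancy. The sire difference was therefore set beside the dam difference, and the difference between both was tested as an interaction. Within the females alone, inbreeding, time of birth, housing and motherhood cannot be told apart. The animals of 1 group are separate mice, and the p-values measure the spread between them.

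Nuclear receptors are transcription factors that bind short DNA motifs at enhancers and promoters, and the steroid and thyroid hormone receptors among them change their activity when their hormone binds. In liver, the glucocorticoid receptor drives genes of glucose production, thyroid hormone receptors control lipid and cholesterol genes, the estrogen receptor ERα takes part in the sex-specific control of metabolism, and RORα ties lipid metabolism to the circadian clock. Cytosine methylation at CpGs is usually low at CpG-rich promoters and at active enhancers and high over the rest of a gene.

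Depth ranged from 19.4 to 32.8 reads per CpG over the 24 livers, with 365740739 to 619888157 counts of reads over autosomal CpGs, and autosomal methylation ranged from 75.05 to 77.5%. The 3 B6 dams had the lowest values of the 24 livers, at 75.05, 75.26 and 75.73%. A liver is a mixture of cells. The promoters of the 7 measured hepatocyte genes had mean methylation of 16.5% (F2, prothrombin) to 58.8% (Serpina1a, α1-antitrypsin), and those of the 3 measured leukocyte genes 75.4% (Ptprc) to 87.3% (Cd3e). Those of the 3 stellate cell genes were at 0.609% (Reln) to 23.6% (Des) and those of the 4 endothelial genes at 59.1% (Tek) to 74.4% (Cdh5). The 1 measured Kupffer cell promoter (Clec4f) was at 87.9%. These levels were not used to measure the share of a cell type.

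The receptor genes lay on 7 chromosomes: Esr1 at chr10:5340927-5734948, Esr2 at chr12:77221406-77278246, Pgr at chr9:8900419-8965425, Nr3c1 at chr18:39570199-39650955, Nr3c2 at chr8:79423341-79768911, Thra at chr11:98601952-98630320, Thrb at chr14:18493474-18870602 and Rora at chr9:68501593-69236053, all in mm9. Most of their windows were highly methylated. The median window was at 90.7% in Rora, 91.0% in Nr3c2, 89.6% in Esr1, 87.9% in Thrb, 86.5% in Esr2, 79.8% in Thra, 77.2% in Pgr and 64.5% in Nr3c1, against 85.8% over all autosomal windows. Of the 1523 windows, 83 (5.45%) were below 20%, where 4.85% of all windows were. These weakly methylated windows fell into 2 kinds. Within 2 kb of an annotated start site lay 54 of them, and 29 lay farther away, 13 in Rora, 5 in Nr3c2, 4 in Esr1, 3 in Thra, and 2 each in Thrb and Nr3c1. None of those farther away was in Esr2 or Pgr.

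Rora had 3 annotated start sites, numbered here in the order of transcription, with 635.9 kb between the first and the second and 57.56 kb between the second and the third. Its methylation was not even along the gene. Before the second start site, the 643 windows had a median of 91.3%, and 18.0% of them were below 80%. Between the second and the third, the 65 windows had a median of 53.3%, and 76.9% of them were below 80%. Past the third site the median of 51 windows returned to 89.8%. Intermediate methylation was thus most frequent in the stretch between both internal start sites of Rora.

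**Figure D1:**
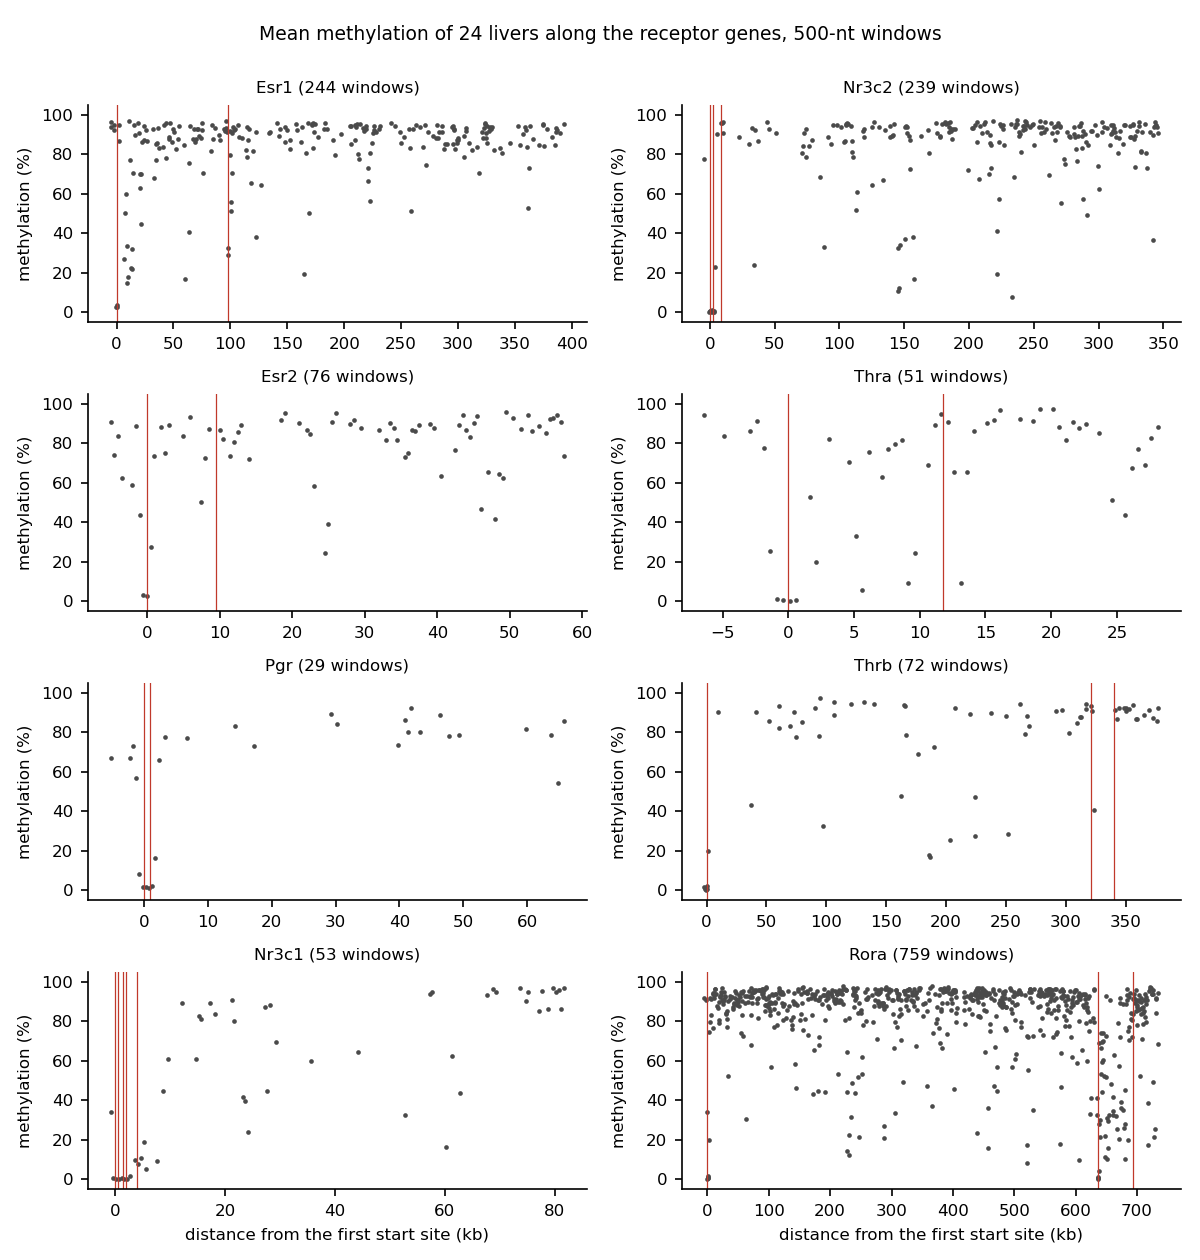
Mean methylation of the 24 livers (percent, y axis) in each 500-nt window along the 8 receptor genes, against the distance from the first start site in the direction of transcription (kb, x axis), with red lines at annotated start sites. Windows drop to near 0 at the first start site of every gene, and in Rora the windows between the second and the third start sites have a median of 53.3%.

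The 22 annotated start-site regions, 500 nt on either side of each start, were mostly either nearly free of methylation or heavily methylated. The first start site of each gene was at 3.70% or lower: 2.04% in Esr1, 3.70% in Esr2, 1.65% in Pgr, 0.372% in Nr3c1, 0.379% in Nr3c2, 0.332% in Thra, 0.313% in Thrb and 0.407% in Rora. The second Rora site, at the start of the stretch of intermediate methylation, was at 0.673%. Internal start sites with few CpGs were methylated, at 89.3% for the second site of Esr2, 93.6% for that of Thra, 93.3 and 93.2% for the second and the third of Thrb, 96.2% for the third of Nr3c2 and 83.6% for the third of Rora.

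One receptor start site was between these extremes. The second Esr1 start site, with 22 CpGs, had a mean of 33.1%, ranging from 20.6 to 40.8% over the 24 animals. The fifth Nr3c1 site was at 8.96%, ranging from 3.66 to 13.6%. No receptor start site was called in any of the 7 comparisons made here (limma, adjusted p over all start sites). Of 27474 start sites tested on the autosomes, 0.153% were called between dams and daughters, 0.0255% between sires and sons, 0.051% for the interaction, 10.6% between B6 and C3 parents, 0.659% between sires and dams, 0.277% between sons and daughters and 0.0218% between the crosses. The receptor site nearest to a call was the first Rora site between B6 and C3 parents (adjusted p = 0.0540). At an unadjusted p below 0.05, 1 to 4 of the 22 receptor start sites differed in each comparison, where 6.16 to 23.3% of all start sites did.

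The question asked of the receptor genes was whether dams differed from their virgin daughters. A window was called when its adjusted p (limma on the log2 ratio of methylated to unmethylated reads, Benjamini-Hochberg over all autosomal windows) was below 0.05 and its mean methylation differed by at least 20 percentage points. None of the 1523 receptor windows was called between dams and daughters, where 0.0198% of all windows were. At an unadjusted p below 0.05, 130 receptor windows (8.54%) differed, a share close to the 7.94% of all windows. Without the minimum of 20 points, 7 passed the adjusted p, against 0.181% of all windows, and 10 passed by a quasi-binomial test of the read counts, against 0.373%. Of the 7, 5 were in Rora, 1 in Nr3c2 and 1 in Thrb. In 6 of the 7, dams were lower, a direction in which 0.149% of all windows passed. Leaving out 1 animal at a time gave 4 to 8, and without C3 dam 1 the 4 left were in Rora. The windows past the adjusted p were chosen for description after their values were seen.

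Between sires and F1 sons no receptor window passed the adjusted p by limma or by the quasi-binomial test, where 0.0143 and 0.0165% of all windows did. None was called, where 0.00227% of all windows were. At an unadjusted p below 0.05, 103 receptor windows (6.76%) differed, where 6.26% of all windows did. For the interaction, the dam difference minus the sire difference, none was called, against 0.0185% of all windows, and 3 passed the adjusted p, against 0.0428%. By the quasi-binomial test 4 passed, against 0.0957%, and 112 (7.35%) were below an unadjusted p of 0.05, where 7.09% of all windows were. All 3 that passed were in Rora.

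Of the 5 Rora windows that passed between dams and daughters, 3 lay together in intronic sequence, within 9000 nt (chr9:68655001-68664000) that began 153.4 kb past the first start site. The other 5 windows tested in this stretch differed by −6.27 to +0.39 points, 2 of them lower in dams, and none passed (lowest adjusted p 0.328). The sequences of these 3 intronic windows are shown because they are the only windows past the adjusted p and lower in dams that lay together (mm9, plus strand, CpGs in capitals).
Rora intron window 1, chr9:68655104-68655402: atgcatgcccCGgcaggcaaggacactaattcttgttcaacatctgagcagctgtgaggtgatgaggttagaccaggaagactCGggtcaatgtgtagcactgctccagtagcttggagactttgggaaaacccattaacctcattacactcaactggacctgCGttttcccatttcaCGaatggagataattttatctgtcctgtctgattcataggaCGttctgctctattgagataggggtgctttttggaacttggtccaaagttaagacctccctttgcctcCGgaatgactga
Rora intron window 2, chr9:68660179-68660478: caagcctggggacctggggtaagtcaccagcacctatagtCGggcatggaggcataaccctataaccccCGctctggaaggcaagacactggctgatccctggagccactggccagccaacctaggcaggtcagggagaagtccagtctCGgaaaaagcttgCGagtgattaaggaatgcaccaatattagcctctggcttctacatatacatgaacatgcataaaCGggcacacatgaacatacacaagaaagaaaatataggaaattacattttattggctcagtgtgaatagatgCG
Rora intron window 3, chr9:68663696-68663995: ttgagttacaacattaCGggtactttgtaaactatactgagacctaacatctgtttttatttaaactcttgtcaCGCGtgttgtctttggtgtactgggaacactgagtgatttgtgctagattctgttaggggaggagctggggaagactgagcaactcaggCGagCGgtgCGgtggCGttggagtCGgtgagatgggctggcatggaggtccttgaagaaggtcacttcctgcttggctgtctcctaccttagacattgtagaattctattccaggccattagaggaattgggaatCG
Each of the 3 whole windows holds AGGTCA, the hexamer that RORα and the thyroid and other nuclear receptors recognise, on 1 strand or the other, as did 27.6% of all autosomal windows tested. This is a match of letters only.

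The first of these windows (chr9:68655001-68655500, 6 CpGs) was at 73.3, 73.6 and 72.4% in the 3 B6 dams and at 78.8, 86.7 and 86.4% in the 3 C3 dams. The virgin daughters were at 92.6, 90.2 and 95.7% (B6C3F1) and at 93.8, 92.3 and 97.8% (C3B6F1). Every dam was below every daughter, and the B6 dams were below the C3 dams. The mean was 78.5% ± 6.60 (SD, n = 6) in dams and 93.7% ± 2.70 (SD, n = 6) in daughters, a difference of −15.2 points, and the log2 ratio of methylated to unmethylated reads fell by 2.01 (SE 0.29, adjusted p = 0.000215). All 6 CpGs were lower in dams, by 6.44 to 34.9 points. The B6 dams were also lowest over all autosomal CpGs, and the difference passed with each animal's median set to 0, as it did in all 28 refits of this window, 24 of them without 1 animal each.

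In the same Rora window the sires were at 90.5 to 96.8% (median 92.8%) and the F1 sons at 87.8 to 95.8% (median 92.1%). The males overlapped with the daughters, and every dam stood below every male. The sire difference was 1.37 points (adjusted p = 0.938). The interaction was −16.6 points, −2.27 on the log2 scale (SE 0.41, adjusted p = 0.016). Sires were also higher than the dams of their strain, by 14.6 points (adjusted p = 0.000192), a comparison that shares its dams with the one above.

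The second intronic window of Rora (chr9:68660001-68660500, 7 CpGs, 3 SNVs listed for the strains) was at 69.4 to 76.7% in dams (median 72.1%) and at 81.3 to 85.3% in daughters (median 81.7%). Dams and daughters did not overlap, and B6 dams (73.6% ± 2.88, SD, n = 3) and C3 dams (71.5% ± 2.45, SD, n = 3) were at similar levels. The difference was −10.0 points (log2 −0.83, SE 0.15, adjusted p = 0.00816), and 6 of the 7 CpGs were lower in dams. The sire difference was −1.38 points (adjusted p = 0.945), and the interaction did not pass (−8.66 points, adjusted p = 0.47).

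The third intronic window (chr9:68663501-68664000, 10 CpGs) was near full methylation outside the dams. Daughters were at 94.5 to 98.5% (median 95.9%), sires at 95.8 to 98.4% and sons at 94.3 to 97.4%. The dams were at 92.0, 91.7 and 89.2% (B6) and 77.7, 88.8 and 89.6% (C3), all below every other animal. The difference was −8.02 points (log2 −1.67, SE 0.26, adjusted p = 0.000925), with 9 of 10 CpGs lower in dams, and the interaction was −8.71 points (log2 −1.96, SE 0.37, adjusted p = 0.0299). C3 dam 1, at 77.7%, was far below the other dams. The difference between dams and daughters passed in all 28 refits (highest adjusted p 0.00826). The interaction was lost in 13 of the 28, among them the one without C3 dam 1 (highest adjusted p 0.0904).

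**Figure D2:**
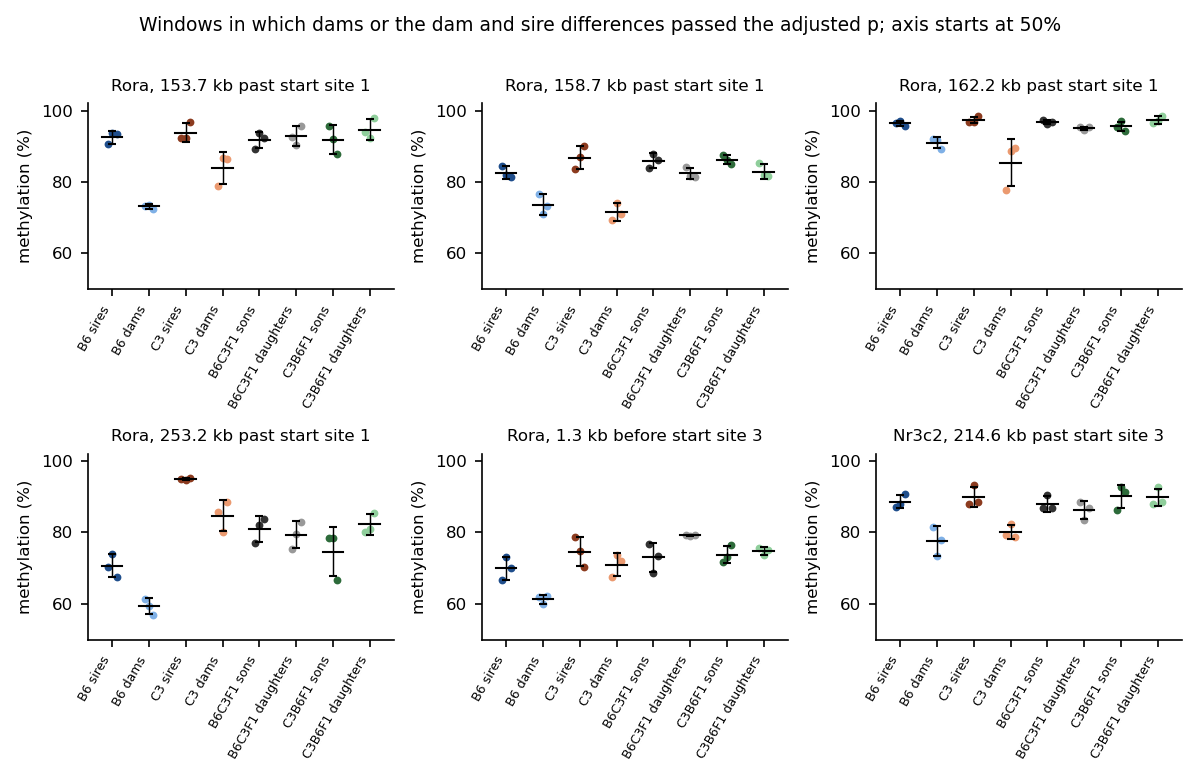
Methylation (percent, y axis, from 50%) in the 8 groups for the 5 windows that were lower in dams than in virgin daughters and not called between the strains, and for the Rora window 253.2 kb past the first start site that passed for the interaction. Points are animals, black lines are means and error bars SD (n = 3), and in the 3 windows from 153.7 to 162.2 kb all 6 dams lie below all 6 daughters.

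Another Rora window (chr9:69193501-69194000, 8 CpGs, intron) lay 1302 nt before the third start site, inside the stretch of intermediate methylation. It was at 62.0, 59.8 and 62.1% in B6 dams, at 67.4, 73.6 and 71.9% in C3 dams and at 73.7 to 79.4% in daughters. The groups did not overlap, but the highest dam (73.6%) and the lowest daughter (73.7%) were next to each other. The difference was −10.9 points (log2 −0.77, SE 0.14, adjusted p = 0.00568), and only 5 of 8 CpGs were lower. The sire difference was −1.08 points (adjusted p = 0.973) and the interaction did not pass (−9.81 points, adjusted p = 0.377). The window also passed between B6 and C3 parents, whose levels overlapped, at −7.17 points (adjusted p = 0.0291).

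In Nr3c2, the mineralocorticoid receptor gene, the window that passed (chr8:79646501-79647000, 6 CpGs, intron, 214.6 kb past the third start site) was at 81.6, 73.4 and 77.9% in B6 dams and at 79.3, 82.3 and 78.7% in C3 dams. Daughters were at 83.4 to 92.6% (median 88.3%), above every dam. The difference was −9.15 points (log2 −0.99, SE 0.20, adjusted p = 0.0205), but it came from 3 of the 6 CpGs, the other 3 being equal or higher in dams. It did not pass in 7 of the 28 refits, each without 1 animal (highest adjusted p 0.103). The sire difference was 0.23 points (adjusted p = 0.993), and the interaction did not pass (−9.38 points, adjusted p = 0.365).

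Both remaining windows were called between the strains. In Thrb (chr14:18655501-18656000, 5 CpGs, intron) B6 dams were at 59.9 to 64.4%, C3 dams at 22.2 to 29.7% and daughters at 51.5 to 68.5%. Only the C3 dams were outside the range of the daughters. The mean of all dams was 15.2 points lower (adjusted p = 0.0133, lost in 3 of the 28 refits), or 21.3 points lower with its CpGs weighted equally. With the reads of all dams and of all daughters summed, its 5 CpGs differed by only −11.7 to −3.35 points, all lower in dams. Sires were likewise 7.70 points lower than sons (adjusted p = 0.506). In Rora (chr9:68746001-68746500, 8 CpGs, intron) C3 dams were at 80.8 to 87.0%, B6 dams at 31.7 to 35.3% and daughters at 39.4 to 55.3%, with the daughters between both strains. The mean of the dams was 14.3 points higher (adjusted p = 0.019, lost in 7 of the 28 refits), but with the reads of all dams and of all daughters summed only 5 of the 8 CpGs were higher in dams, by at most 6.35 points. Sires were 9.78 points higher than sons there (adjusted p = 0.552).

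A further Rora window (chr9:68754501-68755000, 6 CpGs, intron) passed for the interaction but not between dams and daughters. It also passed between sires and dams (10.8 points, adjusted p = 0.00012) and was called between the strains. B6 dams were at 61.5, 59.3 and 57.0%, below B6 sires at 70.3, 74.1 and 67.6%, and C3 dams (mean 84.7% ± 4.34, SD, n = 3) were below C3 sires at 95.0, 94.7 and 95.4%. In both strains all dams were below all sires, while F1 sons (66.7 to 83.8%) and daughters (75.4 to 85.6%) overlapped. The interaction was −13.9 points (log2 −1.39, SE 0.25, adjusted p = 0.0151), and dams minus daughters was −8.80 points (adjusted p = 0.31). Part of the interaction lay in the males, whose mean was 82.8% in sires and 77.7% in sons.

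For the other 5 receptors no window passed between dams and daughters. The window with the largest difference was +11.6 points in Esr1 (chr10:5633501-5634000, coding exon, adjusted p = 0.339), −8.09 in Pgr (chr9:8965001-8965500, coding exon, adjusted p = 0.382), −5.37 in Esr2 (chr12:77281501-77282000, 3504 nt upstream of the first start site, adjusted p = 0.629), −5.04 in Thra (chr11:98627501-98628000, intron, adjusted p = 0.767) and +9.48 in Nr3c1 (chr18:39641001-39641500, intron, adjusted p = 0.181). In Esr1 the dams, at 58.4 to 67.9%, were all above the daughters, at 41.5 to 57.1%, though the difference did not pass. In Pgr the dams were at 42.6 to 55.1% and the daughters at 54.7 to 65.9%, so the groups overlapped by 1 animal on each side. In Nr3c1 the dams were at 54.3 to 72.8% and the daughters at 47.4 to 58.6%. The Thra difference was −7.09 to −2.81 points over the refits and −2.70 with its CpGs weighted equally. The Thra window had only 9.34 reads per CpG and animal, the lowest depth among the windows named. These largest differences were picked from 29 to 244 windows of each gene.

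Across all receptor windows, 770 of 1523 were higher in dams than in daughters, and the median difference was 0.03 points, where it was −0.37 points over all windows. Summed over whole genes, from 5 kb upstream to 1 kb past the end, no receptor gene was called between dams and daughters, where 0.844% of 21218 genes were, and 1 of the 8 differed at an unadjusted p below 0.05, where 13.96% of all genes did. The differences ranged from −0.29 points in Rora (81.8% on average) to +1.03 points in Nr3c1 (56.7% on average). The hepatocyte markers moved with the same contrast: the mean of 7 of 7 measured hepatocyte promoters was lower in dams than in daughters, by 0.737 to 7.11 points, none past the adjusted p (lowest 0.522). The median difference over all start sites was −0.05 points. Of the other types, 2 of 3 leukocyte, 1 of 4 endothelial, 1 of 3 stellate and 0 of 1 Kupffer promoters were lower in dams. The average level of the hepatocyte promoters was 23.1 to 27.7% over the 6 dams and 22.3 to 33.4% over the 6 daughters, while that of the 3 leukocyte promoters was 78.4 to 84.4% and 78.8 to 81.7%. The part of cell composition in the Rora and Nr3c2 differences was not tested.

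**Figure D3:**
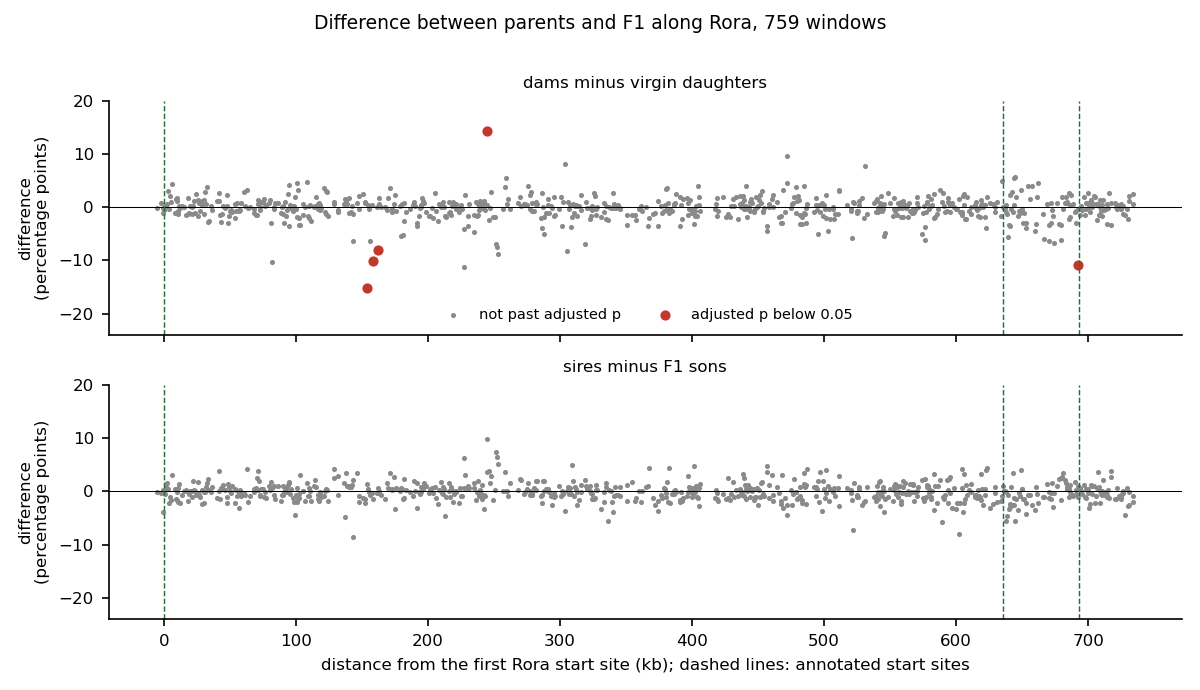
Difference in methylation (percentage points, y axis) between dams and virgin daughters (top) and between sires and F1 sons (bottom) in the 759 windows of Rora, against the distance from the first start site (kb, x axis), with dashed lines at the start sites. Red points passed the adjusted p, 5 in the upper panel and none in the lower.

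Sex differences were compared next, in the parents and then in the virgin F1 animals, in which no pregnancy entered. Between sires and dams 7 receptor windows were called (0.460% of the 1523), where 0.104% of all windows were. In 6 of them methylation was higher in dams and in 1 it was higher in sires, against 0.0684 and 0.0357% of all windows. Without the minimum of 20 points 29 passed, where 0.974% of all windows did, and the directions were then near even, with 15 higher in dams and 14 higher in sires, against 0.512 and 0.462%. Of the 7, 3 were in Rora, 2 in Esr1, 1 in Thrb and 1 in Nr3c2. Between sons and daughters 2 receptor windows were called, both higher in daughters and both in Rora, where 0.051% of all windows were called and 0.0474% were called higher in daughters. Without the minimum 9 passed, against 0.343%. The hepatocyte markers moved with the parental contrast, 6 of the 7 measured promoters being higher in sires than in dams, with differences of −0.0857 to 5.86 points, none past the adjusted p (lowest 0.270). Their average level was 23.3 to 33.0% over the 6 sires and 23.1 to 27.7% over the 6 dams. All 3 stellate cell promoters were lower in sires, by 0.169 to 1.70 points, and lower in sons than in daughters, by 0.214 to 0.543 points. None of these passed the adjusted p (lowest 0.794 and 0.858). Of the 3, Lrat and Reln had almost no methylation to lose, with means of 2.16 and 0.609%. In each comparison 1 of 4 endothelial, 1 of 3 leukocyte and 0 of 1 Kupffer promoters were lower in males. Between sons and daughters 5 of the 7 hepatocyte promoters were lower in sons. The part of cell composition in the sex differences was not tested.

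Of the 7 windows called between sires and dams, both Rora windows upstream of the second start site are shown because they lie next to a start site, and the Nr3c2 window because it was the one higher in sires (mm9, plus strand, CpGs in capitals).
Rora, 1738 nt before start site 2, chr9:69135501-69135800: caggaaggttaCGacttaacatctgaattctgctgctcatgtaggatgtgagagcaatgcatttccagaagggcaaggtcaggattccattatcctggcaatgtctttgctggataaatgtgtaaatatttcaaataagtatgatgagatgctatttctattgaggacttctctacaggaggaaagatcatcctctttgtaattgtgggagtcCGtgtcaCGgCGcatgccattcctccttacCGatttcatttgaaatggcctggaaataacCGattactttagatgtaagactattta
Rora, 738 nt before start site 2, chr9:69136679-69136978: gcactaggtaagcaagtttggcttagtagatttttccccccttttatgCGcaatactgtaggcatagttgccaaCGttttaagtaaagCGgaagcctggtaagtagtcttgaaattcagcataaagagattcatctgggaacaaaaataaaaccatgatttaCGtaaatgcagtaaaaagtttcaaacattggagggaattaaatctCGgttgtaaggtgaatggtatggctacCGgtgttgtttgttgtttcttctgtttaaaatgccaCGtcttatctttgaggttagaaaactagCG
Nr3c2 intron, chr8:79645031-79645269: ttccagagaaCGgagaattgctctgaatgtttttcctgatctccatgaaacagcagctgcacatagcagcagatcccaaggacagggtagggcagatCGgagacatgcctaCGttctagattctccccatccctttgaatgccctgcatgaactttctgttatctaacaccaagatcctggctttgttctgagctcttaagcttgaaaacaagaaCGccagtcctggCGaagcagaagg
The first whole Rora window holds AGGTCA, and all 3 whole windows hold AGAACA, a hexamer that the glucocorticoid, mineralocorticoid and progesterone receptors recognise, on 1 strand or the other. Over the 18 windows called in any comparison, 4 held AGGTCA and 8 held AGAACA, where 27.6 and 38.0% of all windows did, and 17 held the E-box CANNTG, where 93.8% did.

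The Rora window 1738 nt before the second start site (chr9:69135501-69136000, 7 CpGs) was at 27.0 to 36.3% in sires (median 29.4%) and at 41.7 to 61.1% in dams (median 51.8%), with no overlap. The difference was −20.9 points for sires minus dams (log2 −1.27, SE 0.18, adjusted p = 3.31e-05). Among the F1 animals, sons were at 23.8 to 42.7% and daughters at 39.9 to 62.6%, overlapping by 1 animal on each side, and the difference was again −20.9 points (adjusted p = 8.34e-05). All 7 CpGs were lower in males in both comparisons. The F1 difference was −19.4 points with the CpGs weighted equally, and it fell under 20 points, to −19.0 at the least, without B6C3F1 son 3, B6C3F1 daughter 1, C3B6F1 son 3 or C3B6F1 daughter 2. The parental one fell under 20 points, to −19.7 at the least, without B6 dam 1 or C3 dam 3. Dams minus daughters was −1.73 points here (log2 −0.10, SE 0.18, adjusted p = 0.935).

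The Rora window 738 nt before the second start site (chr9:69136501-69137000, 9 CpGs) was at 17.8 to 25.7% in sires and at 37.5 to 50.3% in dams. Sons were at 19.5 to 28.6% and daughters at 31.4 to 41.8%, so that every female was above every male in both generations. The difference was −20.5 points in the parents (adjusted p = 6.85e-07) and −14.7 points in the F1 animals (adjusted p = 0.000362). All 9 CpGs were lower in sires than in dams, but only 6 of the 9 were lower in sons than in daughters. The parental difference fell under 20 points, to −19.6 at the least, without B6 dam 1, C3 dam 1 or C3 sire 1. This window was named after its values were seen. The start site next to it was itself at 0.673% in the mean of all animals.

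The third Rora window (chr9:69235001-69235500, 7 CpGs, untranslated part of an exon) lay 40.2 kb past the third start site, near the end of the gene. Sires were at 60.3, 55.6 and 55.1% (B6) and 47.6, 53.6 and 59.0% (C3), and dams at 83.9, 77.7 and 83.0% (B6) and 82.7, 85.7 and 83.0% (C3). The males and females did not overlap, nor did sons (45.9 to 67.6%) and daughters (73.3 to 83.9%). The difference was −27.5 points in the parents (log2 −1.94, SE 0.19, adjusted p = 3.25e-08) and −22.9 points in the F1 animals (adjusted p = 3.83e-06), the largest sex difference of the receptor windows in each comparison.

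Esr1 was lower in sires over a pair of adjacent windows in a coding exon, 2136 and 2636 nt past its second start site. The nearer one (chr10:5634001-5634500, 22 CpGs) was at 39.7 to 51.1% in sires and at 62.0 to 78.6% in dams, and the other (chr10:5633501-5634000, 50 CpGs, the most CpG-rich window of the gene) at 23.8 to 50.5% and at 58.4 to 67.9%. In both windows every dam was above every sire, and all 22 and all 50 CpGs were lower in sires. The differences were −24.8 points (log2 −1.51, SE 0.18, adjusted p = 1.04e-06) and −23.3 points (log2 −1.40, SE 0.22, adjusted p = 0.000227).

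The virgin F1 animals did not separate in the same way at Esr1. Sons were at 44.1 to 56.9% and daughters at 46.8 to 66.7% in the nearer window, and at 36.6 to 73.4% and 41.5 to 57.1% in the other, overlapping in both. The differences were −8.90 points (log2 −0.52, SE 0.18, adjusted p = 0.381) and −2.04 points (log2 −0.11, SE 0.22, adjusted p = 0.972). The parental sex difference minus the F1 sex difference equals, with its sign turned, the interaction tested above, which was 15.9 and 21.3 points and did not pass (adjusted p = 0.254 and 0.211). The sex difference at Esr1 was therefore not shown to differ between parents and F1 animals.

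In Nr3c2 the called window (chr8:79645001-79645500, 5 CpGs, intron, 213.1 kb past the third start site) went the other way. Sires were at 45.8, 56.9 and 55.2% (B6) and 54.4, 51.0 and 55.3% (C3), and dams at 26.4, 26.6 and 35.5% (B6) and 27.6, 29.4 and 21.4% (C3). Every sire was above every dam, and all 5 CpGs were higher in sires, by 21.2 to 28.7 points. The difference was 25.3 points (log2 1.55, SE 0.16, adjusted p = 9.0e-08).

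The F1 animals were in between at this Nr3c2 window. Sons were at 42.0 to 52.8% (median 45.8%) and daughters at 33.8 to 42.3% (median 38.1%), overlapping by 1 animal on each side, and the sex difference was 8.24 points (adjusted p = 0.348). Dams were lower than daughters by 10.1 points in all 5 CpGs, which did not pass (log2 −0.66, SE 0.16, adjusted p = 0.0863), and neither did the interaction of −17.0 points (adjusted p = 0.0846). The window lay 1500 nt from the Nr3c2 window that was lower in dams.

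In Thrb the called window (chr14:18590501-18591000, 6 CpGs, intron) was at 9.35 to 54.9% in sires (median 18.6%) and at 35.9 to 49.7% in dams (median 48.3%). The groups overlapped through B6 sire 3, at 54.9%, while the other 5 sires were at 27.8% or lower. The difference was −22.0 points (log2 −1.57, SE 0.29, adjusted p = 0.00185), with all 6 CpGs lower in sires. It was −18.0 points without B6 sire 2. Daughters (32.4 to 48.6%) were all above sons (12.5 to 32.3%), by 18.8 points (adjusted p = 0.0207). This window too was named after its values were seen.

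**Figure D4:**
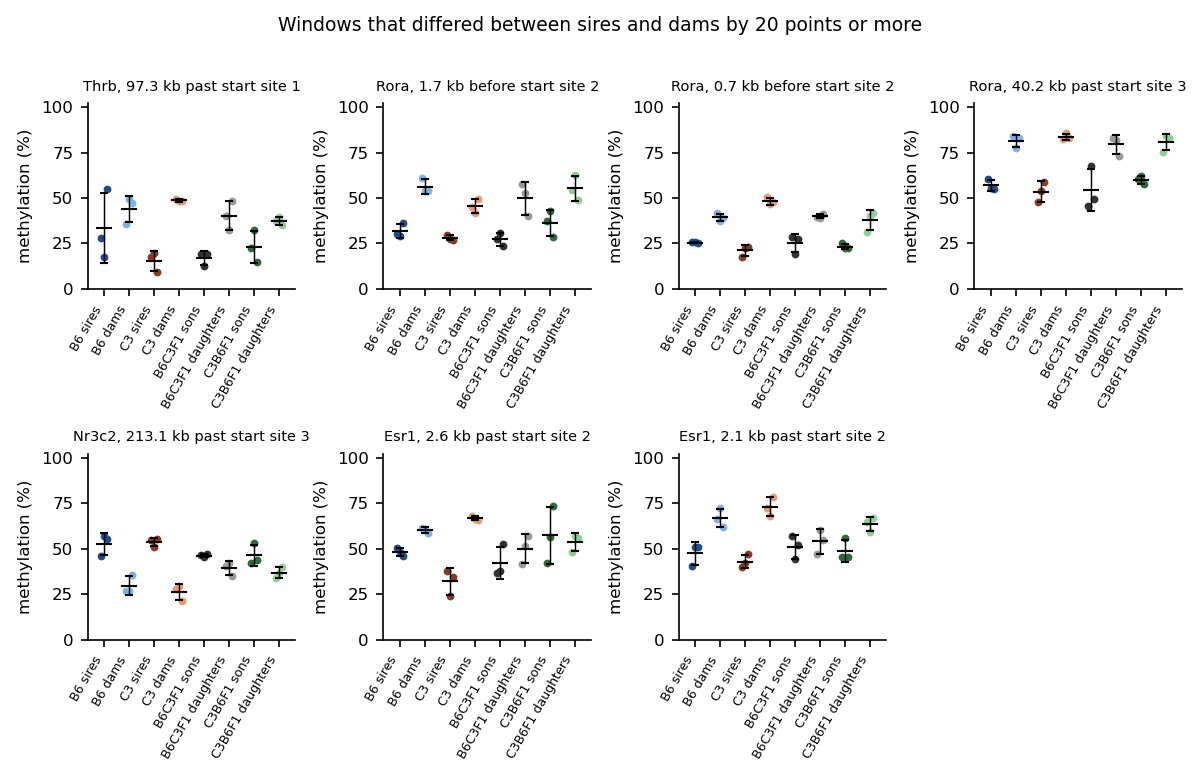
Methylation (percent, y axis) in the 8 groups for the 7 receptor windows called between sires and dams. Points are animals, black lines are means and error bars SD (n = 3); every dam lies above every sire in the Rora and Esr1 windows and below every sire in the Nr3c2 window, and in Thrb the groups overlap through B6 sire 3.

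Summed over whole genes, no receptor gene was called between sires and dams, where 13.4% of genes were, between sons and daughters, where 0.58% were, between sires and sons, where 0.00471% were, or for the interaction, where 0.137% were. At an unadjusted p below 0.05, 2, 1, 1 and 1 of the 8 genes differed, where 24.6, 9.22, 5.83 and 12.5% of all genes did. The nearest was Esr1 between sires and dams, at −0.71 points (adjusted p = 0.0573, or 0.033 with a replicate block). These counts depended on the centring. With the median of all genes set to 0, Esr1 (adjusted p = 0.00498), Thrb (0.0125) and Nr3c2 (0.0272) were called lower in sires than in dams, where 6.81% of all genes were called, and Thrb lower in sons than in daughters (adjusted p = 0.029), where 0.825% were. Between the crosses B6C3F1 and C3B6F1 no receptor window was called, against 0.000686% of all windows, and no gene was called, against 0.0189% of all genes. No receptor window passed the adjusted p by limma, against 0.00192% of all windows, or by the quasi-binomial test, against 0.00913%. At an unadjusted p below 0.05, 104 receptor windows (6.83%) and 0 receptor genes differed between the crosses, where 6.69% of all windows and 17.1% of all genes did.

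Strain was the third question. Between B6 and C3 parents 11 receptor windows were called (0.722% of the 1523), where 0.494% of all windows were, and 112 passed the adjusted p alone, where 6.63% did. Of the 112, 38 were higher in B6 and 74 higher in C3, against 2.34 and 4.29% of all windows. Of the 11, B6 was higher in 5 and C3 in 6, against 0.245 and 0.249% of all windows. The 6 include a Thrb window (chr14:18816501-18817000) that was 2.42 points higher in B6 with its CpGs weighted equally. With a minimum of 100 reads 2 of 1050 windows were called (0.190%, against 0.327% of all windows), and on windows shifted by 250 nt 6 of 1515 (0.396%, against 0.499%), so the share of receptor windows was then below that of all windows. With a minimum of 3 CpGs 18 of 2608 were called (0.690%, against 0.436%). Of the 11 windows called in the main setting, Rora held 4, Thrb and Esr1 3 each and Thra 1. None of the 11 was in Esr2 or Pgr, which had 0 SNVs listed for the strains, nor in Nr3c1 or Nr3c2, which had 64 and 442. Thrb, with 1814 SNVs or 4.73 per kb, lay at the 94.6th percentile of all genes. Of the 11 windows 8 held an SNV, where 27.1% of the receptor windows did.

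In Rora the largest strain difference was in the window 244.7 kb past the first start site described above (chr9:68746001-68746500). B6 parents were at 31.7 to 35.9% and C3 parents at 72.0 to 87.0%, with no overlap, a difference of −47.1 points (log2 −3.00, SE 0.20, adjusted p = 3.99e-13). The F1 animals were at 34.1 to 61.8%, with a mean of 45.6%, below the midpoint of the parents of 57.6%. C3 parents had 7.58 reads per CpG there and B6 parents 24.5, and the part of this uneven depth in the F1 level was not tested.

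Thrb held the second largest difference (chr14:18655501-18656000). B6 parents were at 59.9 to 68.5% and C3 parents at 12.2 to 29.7%, a difference of 42.6 points (log2 2.68, SE 0.18, adjusted p = 5.98e-13). The F1 mean was 53.3%, nearer to B6, and depth was again uneven, with 28.5 reads per CpG in B6 and 9.87 in C3. Another Thrb window (chr14:18717001-18717500), which overlaps an annotated 7SK RNA gene and is uncertain where reads from its copies cannot be told apart, was at 59.6% in B6, 31.9% in C3 and 48.6% in F1 animals.

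The third strain difference in Thrb did not hold CpG by CpG. In the window chr14:18816501-18817000 B6 parents were at 29.8% and C3 parents at 59.5%, a difference of −29.7 points (adjusted p = 8.96e-10). At its 5 CpGs the 6 C3 parents had 11, 4, 24, 107 and 212 reads in all, against 234 to 293 in the B6 parents, and no CpG was lower in B6 by more than 4.59 points. With equal weights on the 4 CpGs that had 5 reads or more in every group, which left out the CpG with 4 reads in C3, the difference was +2.42 points. With equal weights 9 of the 11 strain windows, 7 of the 7 between sires and dams and 1 of the 2 between sons and daughters still differed by 20 points.

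In Esr1 a pair of adjacent intronic windows, 20.8 and 20.3 kb past the first start site, was higher in B6. The first (chr10:5713501-5714000, 7 CpGs) was at 79.2% ± 7.05 in B6, 42.7% ± 9.06 in C3 (SD, n = 6) and 65.5% in F1 animals, and the second (chr10:5714001-5714500, 11 CpGs) at 83.3% ± 5.59, 52.6% ± 10.2 and 72.1%. The strains did not overlap in either window, and all 7 and all 11 CpGs were higher in B6, by 19.1 to 48.4 and by 24.1 to 40.9 points. The differences were 36.5 points (adjusted p = 8.11e-08) and 30.8 points (adjusted p = 1.09e-08). Another Esr1 window (chr10:5372501-5373000) was lower in B6, at 39.4% against 68.4%.

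The other called windows were smaller. In Rora the window 842 nt upstream of the first start site (chr9:68500501-68501000) was at 44.6% in B6 and 20.9% in C3 (23.8 points, adjusted p = 2.16e-08), next to a start site at 0.407%. Those at chr9:68754501-68755000 and chr9:68875501-68876000 were lower in B6 by 24.9 and 20.8 points, the last by 19.7 and 19.3 points without B6 sire 2 and without B6 dam 2. In Thra (chr11:98616501-98617000, 1850 nt past the second start site) B6 was at 53.6% and C3 at 75.7% (−22.1 points, adjusted p = 5.54e-05), or −18.7 points with CpGs weighted equally and −19.2 points without B6 dam 1. In the 10 windows other than chr14:18816501-18817000 in Thrb, whose strain difference did not hold CpG by CpG, the F1 mean lay between the parents, from 0.37 to 0.77 of the way from C3 to B6.

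**Figure D5:**
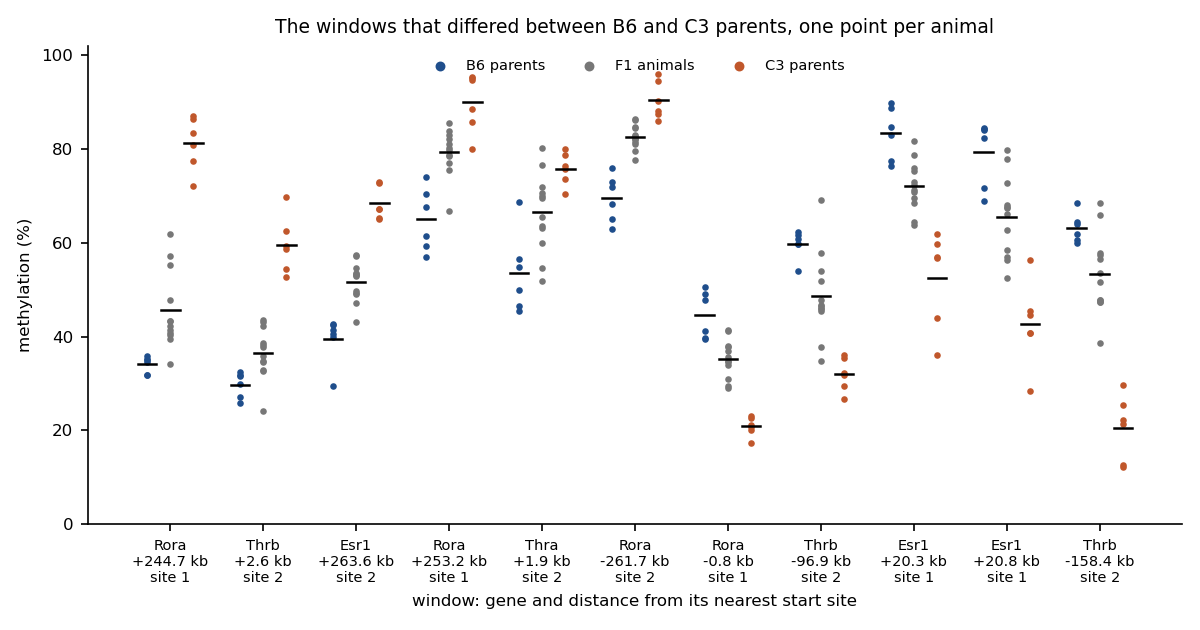
Methylation (percent, y axis) of B6 parents (blue, n = 6), F1 animals (grey, n = 12) and C3 parents (orange, n = 6) in the 11 windows called between the strains, ordered by the difference and named by gene and distance from the nearest start site (x axis). Points are animals and lines are means, and the F1 mean lies between the parental means in each window, one of which (chr14:18816501-18817000 in Thrb) has a strain difference that turns from −29.7 to +2.42 points with its CpGs weighted equally.

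Over whole genes 4 receptors were called between the strains, all lower in B6, where 27.9% of genes were called. The differences were −1.19 points in Nr3c2 (adjusted p = 0.0213), −2.87 in Thra (adjusted p = 0.0142), −1.25 in Esr2 (adjusted p = 0.0151) and −1.14 in Thrb (adjusted p = 0.0416). The median gene was itself 0.96 points lower in B6, and with the median of all genes set to 0 none of the 8 receptors was called. The share of all genes called with that centring is not given.

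The gene whose methylation followed each receptor most closely over the 24 animals, after subtracting each animal's autosomal methylation, was Pgcp for Esr1 (r = 0.902), Rab44 for Esr2 (r = 0.813), Rap2b for Pgr (r = 0.895), Msl2 for Nr3c1 (r = 0.882), Lrrc28 for Nr3c2 (r = 0.880), Hmx1 for Thra (r = 0.777), Rassf3 for Thrb (r = 0.925) and Vti1a for Rora (r = 0.913). Each is the highest of all autosomal genes compared, is given as a description, and rests on animals that share strain, sex and library depth.

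Other genes of nuclear receptor signalling were counted for comparison, 41 in all: 10 partners and coregulators, 5 chaperones, 7 genes of hormone metabolism, 7 related receptors and 12 hormone targets in liver. None of the 41 genes and none of their 97 start sites was called between dams and daughters, between sires and sons or for the interaction by limma. Of all genes 0.844, 0.00471 and 0.137% were called in these comparisons, and of all start sites 0.153, 0.0255 and 0.051%. At an unadjusted p below 0.05, 11 of the 41 genes (26.8%) differed between dams and daughters, 2 (4.88%) between sires and sons and 5 (12.2%) for the interaction, where 13.96, 5.83 and 12.5% of all genes did. As many, 11 of the 41 (26.8%), differed between the crosses B6C3F1 and C3B6F1, where 17.1% of all genes did. The median difference of the 41 genes between dams and daughters was +0.30 points, where that of all genes was −0.18. Between sires and dams 7 of the 41 were called (17.1%, against 13.4% of all genes), 5 higher in sires and 2 lower, among them Dio1, the deiodinase that activates thyroid hormone in liver (+3.15 points, adjusted p = 0.0021), and G6pc, the glucose-6-phosphatase of glucose production (−6.15 points, adjusted p = 0.000417). Between the strains 12 were called (29.3%, close to the 27.9% of all genes), 2 higher in B6 and 10 lower, led by Dio1 (−10.7 points, adjusted p = 7.62e-10) and Thrsp, a thyroid hormone target of fat synthesis (+8.97 points, adjusted p = 1.27e-07). The median difference of all genes was itself −0.96 points for B6 minus C3 parents and +0.51 points for sires minus dams. The counts of the 41 genes were made without centring. Of the 97 start sites, 5 were called higher in B6 and 4 lower, where 10.6% of all start sites were called. Between sires and dams 1 of the 97 was called, and between sons and daughters 1, where 0.659 and 0.277% of all were. Both calls were at the same site of Ncor1, a corepressor of thyroid hormone receptors. That site was lower in sires than in dams by 9.50 points (limma, adjusted p = 0.0437). It was lower in sons than in daughters by 10.9 points (adjusted p = 0.0246).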

How the data were processed

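Livers of 24 mice, in 8 groups of 3, were analysed. The authors mapped bisulfite reads to mm9, a reference derived from a B6 mouse, with Bismark 0.7.8 and Bowtie 0.12.8 and removed duplicates with Bismark's own deduplication script. They deposited counts of methylated and unmethylated reads for each CpG and animal at 18887127 autosomal CpGs kept in both strains. They also deposited a list of SNVs with the bases of mm9, B6 and C3, which was used for positions only. Every listed position was counted, without asking whether the B6 and the C3 base differed from each other. Every deposited CpG was a CG in the mm9 sequence. Reads carrying C3 alleles can map less often to this reference.

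Counts were summed in 500-nt windows from position 1 of each autosome, over whole genes and within 500 nt of start sites (GENCODE M1 on NCBIM37), keeping regions with at least 5 CpGs and 30 reads in every animal. The log2 of (methylated + 1)/(unmethylated + 1) was fitted with limma 3.58.1 (R 4.3.3, trended and robust variances, 1 mean per group, all 24 animals, 16 residual degrees of freedom), and p-values were adjusted by Benjamini-Hochberg over all regions of a kind. The study called regions with DSS and Metilene, which were not run here. A window was called at an adjusted p below 0.05 and a difference of 20 points, and a gene or start site at the adjusted p alone. The script was tested on simulated data.

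The windows named were the 3 called per direction with the largest difference in each comparison and, for dams against daughters, that of each gene. Other called windows, and those past the adjusted p alone, were chosen after their values were seen. The genes, lists and comparisons were chosen with earlier results of these data known. Levels carry the spread between animals and counting error, which is set by the reads of each window. The 19.4 to 32.8 reads per CpG are autosomal means of the animals, and single windows had fewer. C3 parents had 7.58 at chr9:68746001-68746500 in Rora and 9.87 at chr14:18655501-18656000 in Thrb. Comparisons that share animals are not independent. Alternatives were a block for the replicate number, a larger pseudocount, an arcsine scale, median centring, a quasi-binomial model, other minima of reads, CpGs and points, a grid shifted by 250 nt, leaving out each animal and weighting each CpG equally.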

Additional observations from a re-analysis of the deposited data

Results flagged for a closer look

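The dam difference and the sire difference differed by the interaction test in 3 intronic Rora windows. The interaction was −16.6 points (adjusted p = 0.016) at chr9:68655001-68655500, −8.71 points (adjusted p = 0.0299) at chr9:68663501-68664000 and −13.9 points (adjusted p = 0.0151) at chr9:68754501-68755000. The call at the second of these was lost in 13 of 28 refits (highest adjusted p 0.0904), those without C3 dam 1 and without 12 other animals. The others passed in all 28, but close to the threshold of 0.05 (highest adjusted p 0.0497 at the first and 0.0439 at the last). In the last window the strains also differed, and the mean of sires (82.8%) was above that of sons (77.7%).

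Single animals stood far from the other 5 of their group in 7 of 64 groups of windows examined. The rule flags about 1 in 20 groups drawn from 1 population. These groups pooled strains, crosses or sexes, shared animals and came from windows chosen by their values. The 7 therefore cannot be set against that rate. Among them, C3 dam 1 was at 77.7% in the Rora window chr9:68663501-68664000, B6 dam 2 at 77.7% in the Rora window chr9:69235001-69235500, B6 sire 3 at 36.3% in the Rora window chr9:69135501-69136000 and C3 sire 1 at 17.8% in the Rora window chr9:69136501-69137000. In Thrb, B6 dam 1 was at 35.9% at chr14:18590501-18591000 and at 53.9%, among the 6 B6 parents, at chr14:18717001-18717500. In Esr1, B6 sire 3 was at 29.5% among the B6 parents at chr10:5372501-5373000.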

How the results depend on the processing

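Counts of receptor windows depended most on the minimum difference. With 10 points, 5 windows were called between dams and daughters, 2 for the interaction, 39 between the strains, 25 between sires and dams and 8 between sons and daughters (0.136, 0.0414, 2.39, 0.573 and 0.255% of all windows), and with no minimum 7, 3, 112, 29 and 9. For the strains, a minimum of 100 reads left 2 called windows (1050 of 1523 tested), a minimum of 3 CpGs gave 18 and windows shifted by 250 nt gave 6. With medians centred, 0 receptor genes were called between the strains, 3 between sires and dams (6.81% of all genes) and 1 between sons and daughters (0.825%), and 1 start site was called between the strains (an alternative chosen after seeing the data). The shares of all genes and start sites called between the strains with this centring are not given, so both strain counts lack a background. With each CpG weighted equally, also chosen after seeing the data, the Thrb window chr14:18816501-18817000 turned from −29.7 to +2.42 points.

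Leaving out 1 animal at a time gave 4 to 8 windows past the adjusted p between dams and daughters (4 without C3 dam 1), 2 to 4 for the interaction and 0 to 1 called for it (1 without C3B6F1 son 1), 10 to 12 called between the strains, 5 to 7 between sires and dams, and 1 to 3 between sons and daughters (1 without B6C3F1 son 3, B6C3F1 daughter 1, C3B6F1 son 3 or C3B6F1 daughter 2). It gave 2 to 5 receptor genes called between the strains (2 without C3 dam 3), 0 to 1 start sites between the strains (1 without C3 sire 1, C3 dam 3, B6C3F1 daughter 2, C3B6F1 son 2 or C3B6F1 daughter 3) and 0 to 1 between sires and dams (1 without C3 dam 3). Of 1008 refits of the named windows, 977 kept their side of the adjusted p, 30 lost it (13 for the interaction at Rora chr9:68663501-68664000 and the others between dams and daughters, at the Nr3c2 window and both windows that differed between the strains), 1 gained it and 0 turned in direction. The causes were not tested.

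The replicate numbers shared by the groups were not taken as pairs, since no correlation between deviations of same-numbered animals was over 0.1 and the labels do not tie the numbers to families. Same-numbered animals correlated at −0.02 to 0.07 (median 0.0058, 84 pairs) and others at −0.04 to 0.03 (median −0.0038, 168 pairs). The study took separate families for each cross, so same-numbered animals of different crosses would not be of 1 family. The pooled correlations therefore cannot decide whether the numbers mark families. As a hint from the data, 16 of 24 animals correlated best with an animal of their own number, where 7 of the 21 animals of other groups share it. With a replicate block 7 windows passed between dams and daughters, 3 for the interaction, 11 were called between the strains, 7 between sires and dams and 2 between sons and daughters, and 4 and 1 receptor genes were called between the strains and between sires and dams, the last against 0 without it, where 30.5 and 13.9% of all genes were called.

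The depth of 19.4 to 32.8 reads per CpG, an autosomal mean of each animal that single windows can fall below, limits windows of few CpGs most. Windows with under 5 CpGs were not tested in the main setting.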
